A study of Mus musculus with 9 samples.

Results

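The genes described here encode the extracellular matrix of the retina: the collagen chains, the laminin chains and 13 matrix glycoproteins, proteoglycans and matricellular proteins (Fn1, Tnc, Thbs1, Thbs2, Sparc, Nid1, Nid2, Hspg2, Vcan, Bcan, Ncan, Bgn and Dcn). Members were matched by gene symbol, under a rule set with earlier results of these data known. Of 68 genes in the mouse annotation with such symbols, 58 stood among the 14194 entries of the deposited expression table. They comprised 35 collagen chains and 23 other genes. The other 10 (Col3a1, Col5a2, Col6a3, Col6a5, Col6a6, Col10a1, Col14a1, Col26a1, Col28a1 and Lamb3) were not analysed here.

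Ribosome-bound RNA was isolated from mouse retinae 72 h after optic nerve crush (ONC) and, per the labels, from the fellow eyes of the same animals (Control). Every mouse, in both groups, had the genotype Aldhl1l-Cre/Ert2+; NuTRAP+ and had been given tamoxifen, so that cells with activity of the astroglial gene Aldh1l1 carried GFP-tagged ribosomes, which were pulled down with an anti-GFP antibody. Aldh1l1 is active in Müller glia and also in astrocytes, and the fraction analysed was the pulled-down (positive) one. In ONC eyes self-closing forceps held the optic nerve for 3 s, roughly 1 mm from the eyeball, whereas Control eyes were either left alone or sham-operated, without a label that tells which. Each of the 5 ONC and 4 Control libraries pooled 2 retinae; pool 913/986 is represented by its ONC library alone. The pools are named here by their animal numbers, and ages were not given in the sources used here. Values are on a log2 scale and, as read from the values, relative for each gene to a median of controls, so that a value near 0 is typical of Control eyes for that gene. They carry no level that could be compared between genes, and the sequencing depth is unknown. In every list of values the ONC libraries stand in the order of pools 913/986, 914/92, 938/88, 976/978 and 981/982, and the Control libraries in the order of pools 914/92, 938/88, 976/978 and 981/982.

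The retina has little fibrous matrix. Its main matrix structures are basement membranes, in which sheets of laminin and of type IV collagen are joined by nidogens and perlecan: the inner limiting membrane, on which the endfeet of Müller glia rest, the sleeves of the blood vessels, and Bruch's membrane under the pigment epithelium. A laminin is a trimer of an alpha, a beta and a gamma chain, and a collagen is a trimer of alpha chains. Between the cells lies a loose matrix of hyaluronan and the lectican proteoglycans that bind it, while fibronectin, tenascin C and thrombospondins are matrix proteins widely studied in wound repair.

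Libraries stood apart in ways that bear on these genes. The 4 Y-linked genes measured had a median of -8.02 in ONC 913/986 and -7.92 in ONC 914/92, against -0.17 to 0.13 in the other 3 ONC libraries. In Control they had a median of -1.18 in pool 914/92 and of 0.00 to 0.20 in the other pools, so the ONC and Control libraries labelled as fellow eyes of pool 914/92 differed in Y-linked RNA. That goes against the labelled pairing of this pool, and each fit with a block and each count of pools given here follows the labels. All 15 Müller glia markers listed for this comparison were measured, with a median difference of 0.21, but so were all 14 markers of rods and cones and all 17 of microglia and macrophages, and relative values do not show which cell type dominated a library. Microglia and macrophage markers had medians of 0.28 to 2.99 in ONC libraries, against -0.19 to 0.00 in Control libraries, and retinal ganglion cell markers -1.11 to -0.50 in ONC libraries, against -0.24 to 0.11 in Control libraries. Of the 17 microglia and macrophage markers, 11 passed the submitters' raw-value filter in both conditions, and the others entered through 1 condition alone. In ONC 914/92 the 17 ran from -2.87 for Ly86 to 3.42 for Cd68. Each library holds RNA pulled down from many cells. Fewer cells of a type, less RNA per cell and less of that RNA caught in the pull-down cannot be told apart there.

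No matrix gene passed the test at 72 h. Of the 58 members, 0 had an adjusted p under 0.05 (limma moderated test, two-sided, Benjamini-Hochberg over all 14194 entries), against 1.16% of all entries. The smallest adjusted p was 0.121, for the laminin chain Lamb1. At an unadjusted p under 0.05, 7 members (12.1%) differed, against 19.5% of all entries. Among them, Lamb1, Lama1, Lama3 and Hspg2 had lower means in ONC, and Sparc and Col9a2 had higher means. Each of the 18 alternative fits also called 0 members, with 3 to 16 at an unadjusted p under 0.05, and the smallest adjusted p of any member in them was 0.0564, for Sparc with the animal pool as a block. The count at an unadjusted p was 14 without ONC 914/92 (24.1%, against 16.3% of all entries in that fit), with Col1a2 then at the smallest adjusted p (0.0971), 16 without both libraries of that pool (27.6%, against 20.8%), 11 with a block and a variance trend together (19.0%, against 25.2%), and 3 after quantile normalization (5.17%, against 12.98%). Without the ONC libraries of pools 913/986 and 914/92, both low in Y-linked RNA, it was 7 (12.1%, against 11.0%): Nid2, Col1a2, Col4a5, Col5a1 and Col11a1 with higher means in ONC, and Lamb1 and Lama1 with lower means. In that fit Lamb1 differed by -0.37 and Lama1 by -0.53, and the smallest adjusted p was 0.196, for Nid2.

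**Figure D1:**
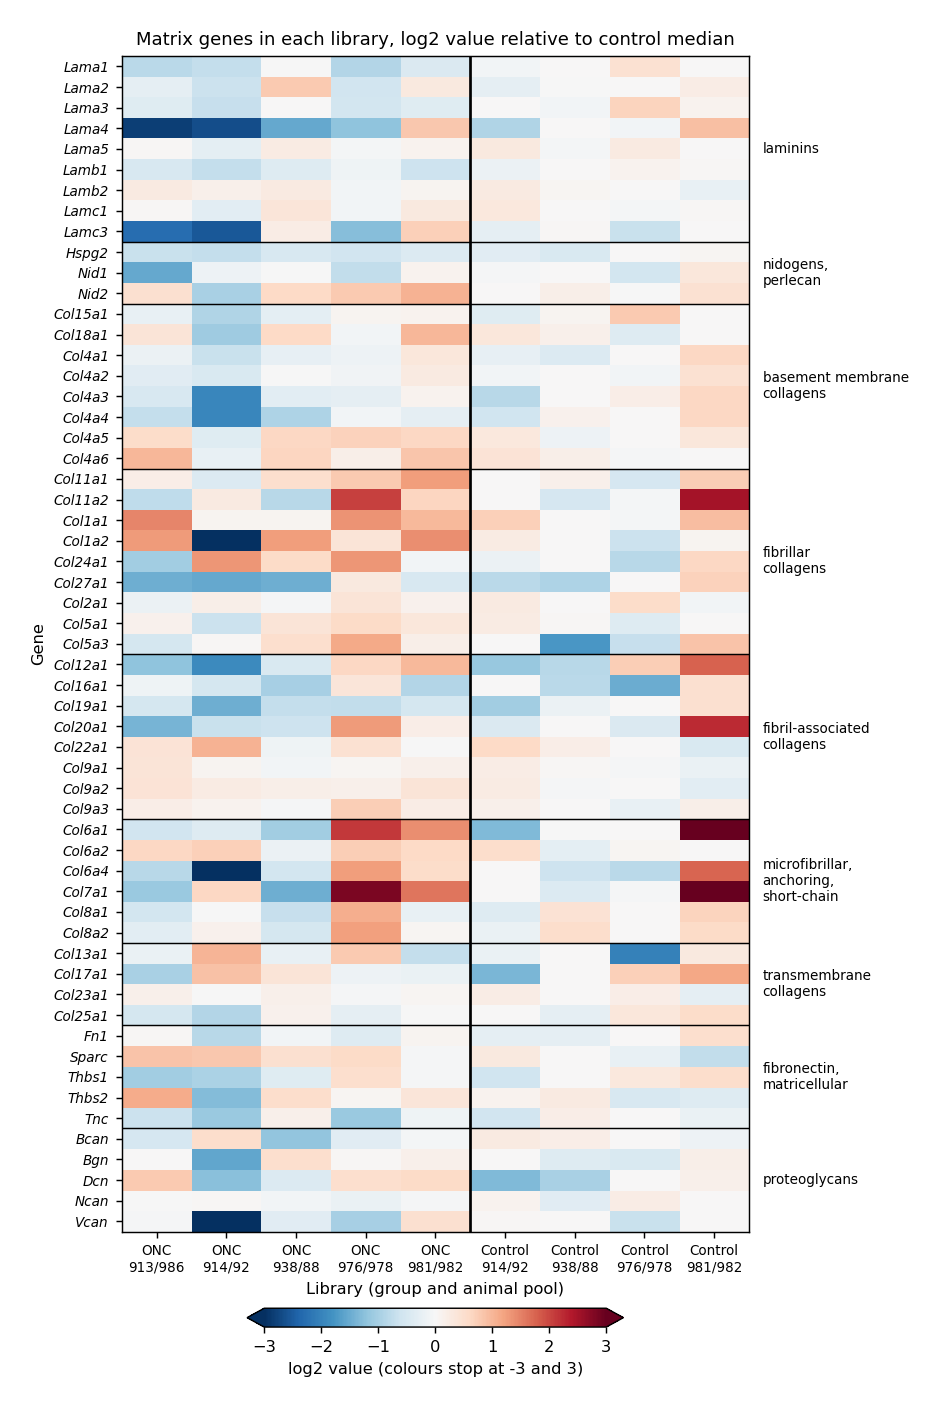
Values of the matrix genes (rows, grouped by role) in the 5 ONC libraries (left of the black line) and the 4 Control libraries (right), on the log2 scale relative to a Control median. Blue marks lower and red higher values, and colours stop at -3 and 3. ONC 914/92 holds many of the deepest blue cells and Control 981/982 many of the deepest red ones.

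The members' differences lay on both sides of 0, and their values were spread widely between libraries. The median ONC minus Control difference was -0.11 on the log2 scale, with 24 members above 0 and 34 below, beside a median of -0.00062 over all entries. Without Control 981/982 the median was 0.02, and without Control 914/92 it was -0.20. Differences beyond 1 in size were held by 2 members (3.45%), Lama4 among them, against 4.35% of all entries. The SD within groups had a median of 0.569 over the members and of 0.240 over all entries, and 50 of the 58 lay above that all-entry median. The 95% interval of the difference lay within -1 and 1 for 26 of the 58, against 11044 of all 14194 entries. Its median half-width was 0.77 over the members and 0.35 over all entries, so most members were measured less precisely than most entries. Non-overlapping groups were seen in 1 of 58 members, against 7.83% of all entries. Every ONC library lay above every Control library in 3.39% of all entries and below in 4.44%.

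**Figure D2:**
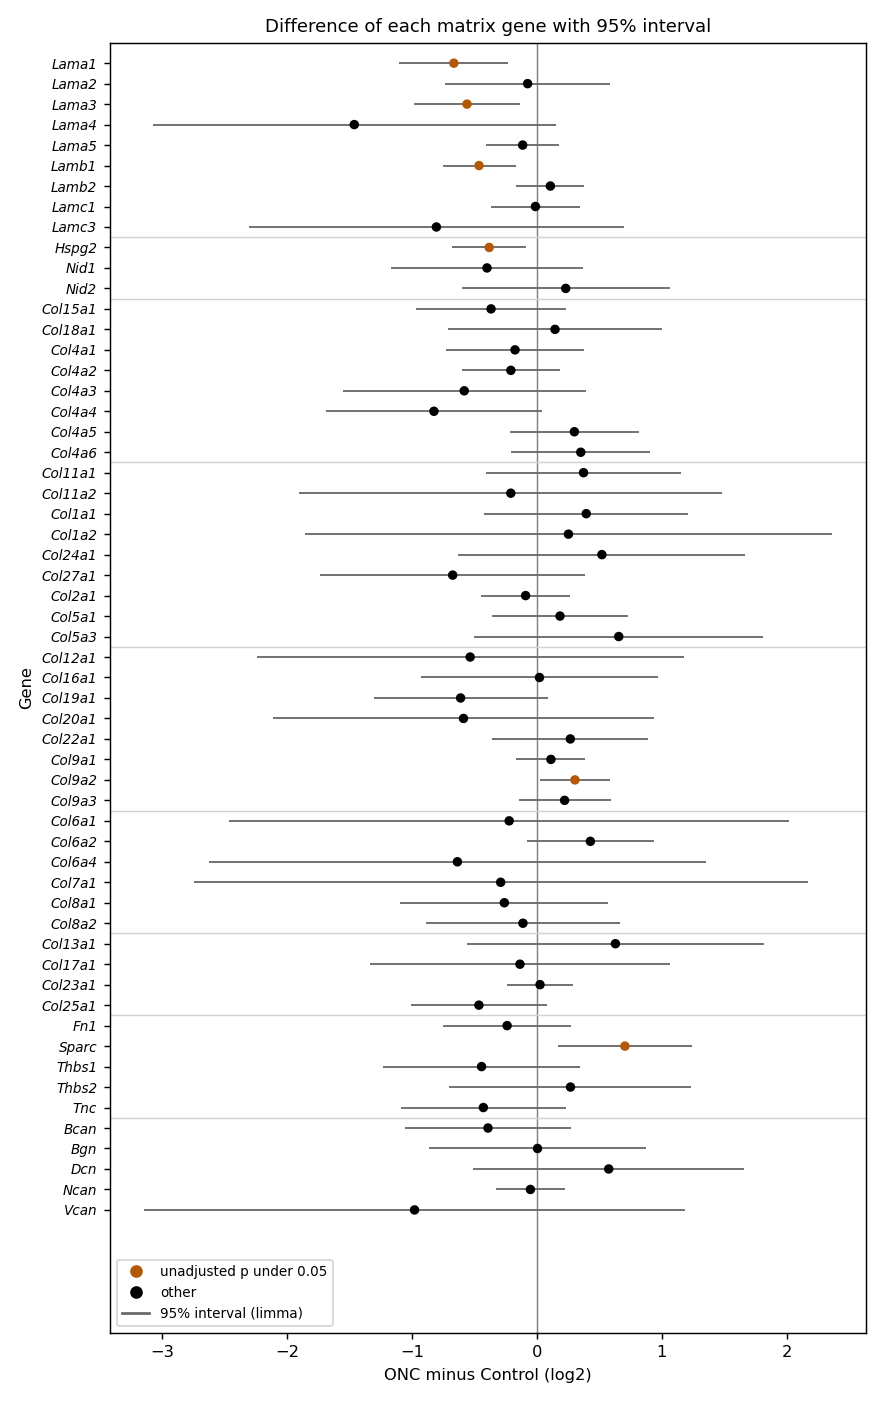
Difference between ONC and Control (horizontal axis, log2) of each matrix gene, with its 95% interval from the fit over all genes. Genes at an unadjusted p under 0.05 are orange, from Lama1 at -0.66 to Sparc at 0.70; the intervals of Lama4, Col1a2, Col7a1, Col6a1 and Vcan are among the widest.

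Of 10 laminin chains, 8 had differences below 0 and none passed. Lamb1 (chr12:31265294-31329639 on mm10, plus strand), the beta 1 chain found in most embryonic and many adult laminins, stood at -0.49, -0.72, -0.39, -0.13 and -0.63 in the ONC libraries, against -0.18, 0.00, 0.10 and 0.04 in the Control libraries. It was lower in ONC than in Control in all 4 pools that have both eyes, although ONC 976/978 lay above Control 914/92. The means were -0.47 ± 0.23 in ONC (SD, n = 5) and -0.01 ± 0.12 in Control (SD, n = 4), a log2 difference of -0.46 ± 0.13 (SE, 95% interval -0.75 to -0.17, adjusted p = 0.121). Lama1, its alpha partner in the first laminin of the developing eye, stood at -0.81, -0.71, -0.01, -0.87 and -0.42 in the ONC libraries, against -0.07, 0.00, 0.45 and 0.02 in the Control libraries. It too was lower in ONC in all 4 pools, and ONC 938/88 overlapped the Control range. Nid1, Col4a2 and Lama4, at adjusted p of 0.512, 0.503 and 0.289, were also lower in all 4 pools. The share of all entries with the same direction in all 4 pools is not given here, so such counts do not set a gene apart. The difference of Lama1 was -0.66 ± 0.19 (SE, adjusted p = 0.131). Lama3, an alpha chain best known from the laminin that anchors epithelia, stood at -0.36, -0.68, 0.02, -0.55 and -0.36 in the ONC libraries, against 0.00, -0.07, 0.66 and 0.10 in the Control libraries, where the pool 976/978 value was the highest. Its difference was -0.56 ± 0.19 (SE, adjusted p = 0.164).

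Lama4 and Lamc3 were named after their values were seen. Both passed the submitters' raw-value filter in 1 condition alone, so at least 1 library of the other condition lay outside the filter's limits. Lama4, an alpha chain of vascular basement membranes, had the largest difference of any member, -1.46 ± 0.71 (SE, adjusted p = 0.289), with values of -2.82, -2.65, -1.53, -1.21 and 0.82 in the ONC libraries, against -0.91, 0.00, -0.07 and 0.91 in the Control libraries. Its 2 ONC libraries lowest in value were those low in Y-linked RNA, its highest values were those of pool 981/982 in both groups, and without these 2 low ONC libraries its difference was -0.62. The 11 measured endothelial markers had a median that was also low in those libraries: -0.94 in ONC 913/986 and -0.85 in ONC 914/92, against 0.48 in ONC 981/982, 0.71 in Control 981/982 and -0.85 in Control 914/92. Their median was 0.05 in ONC 938/88 and -0.14 in ONC 976/978, where Lama4 stood at -1.53 and -1.21. The markers ran from -2.19 for Tek to 0.30 for Kdr in ONC 913/986. In ONC 914/92 they ran from -2.11 for Pecam1 to 0.56 for Kdr. The part of endothelial cells in the result was not tested. Lamc3, a gamma chain known from the retina and brain, also lay below -2 in those 2 ONC libraries and differed by -0.80 ± 0.66 (SE, adjusted p = 0.5). The remaining chains had differences of -0.07 for Lama2, -0.11 for Lama5, 0.11 for Lamb2 and -0.01 for Lamc1, the gamma 1 chain shared by most laminins.

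**Figure D3:**
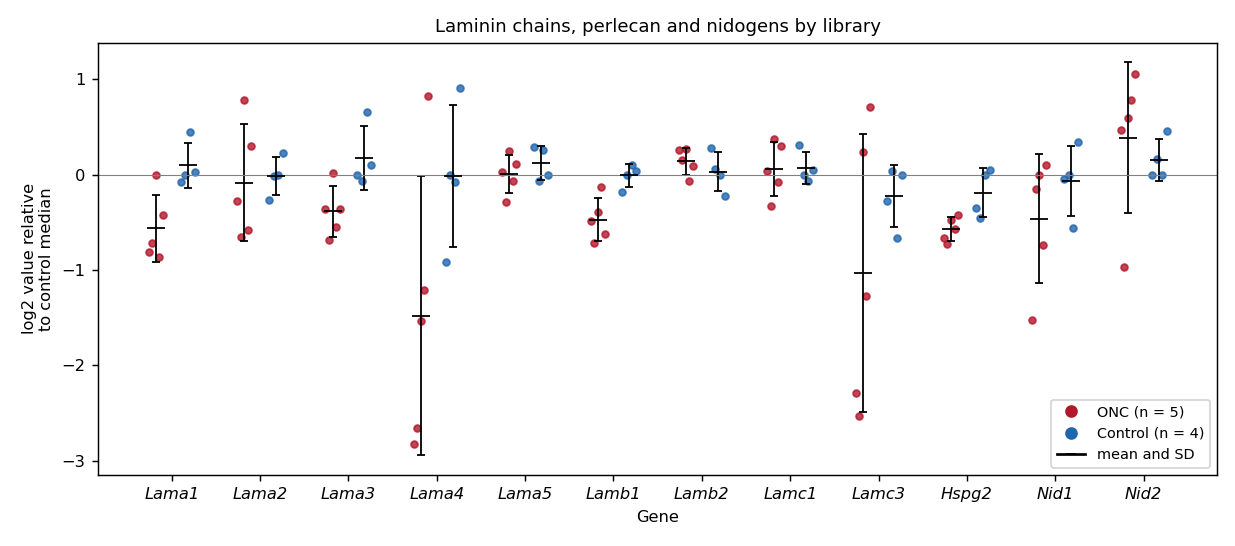
Log2 value relative to a Control median (vertical axis) of 9 laminin chains, perlecan (Hspg2) and the nidogens in each ONC library (red, n = 5) and Control library (blue, n = 4), with mean and SD in black. Lamb1 and Lama1 lie mostly below 0 in ONC, and Lama4 and Lamc3 spread over more than 3 log2 units.

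Perlecan and the nidogens tie laminin to type IV collagen. Hspg2, the heparan sulfate proteoglycan perlecan, stood at -0.66, -0.72, -0.48, -0.57 and -0.42 in the ONC libraries, against -0.35, -0.46, 0.00 and 0.05 in the Control libraries. All 5 ONC libraries were negative and close together, while Control 938/88 reached into the ONC range and Control 976/978 and 981/982 lay near 0. The difference of Hspg2 was -0.38 ± 0.13 (SE, adjusted p = 0.172), lower in all 4 pools. Nid1, the more widely expressed nidogen, stood at -1.53, -0.16, -0.01, -0.73 and 0.10 in the ONC libraries, against -0.05, 0.00, -0.56 and 0.34 in the Control libraries. Its lowest libraries were ONC 913/986 and ONC 976/978, and the difference was -0.40 ± 0.34 (SE, adjusted p = 0.512). Nid2, the other nidogen, stood at 0.47, -0.97, 0.59, 0.78 and 1.05 in the ONC libraries, against 0.00, 0.17, -0.01 and 0.46 in the Control libraries. Here ONC 914/92 was far below the others, and the difference of 0.23 ± 0.37 (SE, adjusted p = 0.732) was 0.57 without that library.

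The 6 type IV collagen genes lie in the genome as 3 pairs, each transcribed in opposite directions from neighbouring starts. In the coordinates of the deposited table (mm10), Col4a1 (chr8:11198423-11312826, minus strand) and Col4a2 (chr8:11312829-11449287, plus strand) leave 2 bases between them. Col4a4 (chr1:82450723-82586849, minus strand) and Col4a3 (chr1:82586921-82722059, plus strand) leave 71, and Col4a6 (chrX:141165403-141474076, minus strand) and Col4a5 (chrX:141475419-141689235, plus strand) leave 1342. Whether the values of partners follow each other more than those of other genes was not tested, nor was any part of the sequences in them. The sequences around the paired starts are shown from RefSeq on GRCm38.p6, 5′ to 3′ on the strand of the gene named first. Matches of the GC box (GGGCGG) and the CCAAT box on either strand are in capitals.
Col4a2 and Col4a1, chr8:11312777-11312854, plus strand: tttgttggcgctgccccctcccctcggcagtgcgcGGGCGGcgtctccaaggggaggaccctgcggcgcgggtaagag
Col4a4 and Col4a3, chr1:82586800-82586970, minus strand: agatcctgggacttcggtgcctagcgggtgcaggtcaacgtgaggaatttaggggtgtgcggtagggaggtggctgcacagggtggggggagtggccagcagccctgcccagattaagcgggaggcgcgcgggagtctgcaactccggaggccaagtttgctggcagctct
Col4a6, chrX:141474027-141474326, minus strand: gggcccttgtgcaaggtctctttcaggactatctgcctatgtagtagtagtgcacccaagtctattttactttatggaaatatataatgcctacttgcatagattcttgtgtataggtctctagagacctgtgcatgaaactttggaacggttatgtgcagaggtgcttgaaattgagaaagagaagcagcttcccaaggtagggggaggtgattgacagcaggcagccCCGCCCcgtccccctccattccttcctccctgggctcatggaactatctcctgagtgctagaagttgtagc
Col4a5, chrX:141475169-141475468, plus strand: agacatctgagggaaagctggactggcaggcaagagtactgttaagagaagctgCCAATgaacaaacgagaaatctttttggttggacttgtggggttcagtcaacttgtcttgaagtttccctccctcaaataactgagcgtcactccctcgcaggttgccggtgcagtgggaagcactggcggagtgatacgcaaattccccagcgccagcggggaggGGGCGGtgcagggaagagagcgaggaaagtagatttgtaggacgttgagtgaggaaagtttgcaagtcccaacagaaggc
The first stretch holds 1 GC box and no CCAAT box in its 78 bases, and the second neither in 171 bases. The third holds 1 GC box, and the fourth 1 of each, in 300 bases, 250 before the start and 50 after it. The first stretch is only the part shared by the 300-base windows of its 2 genes. The whole Col4a2 window held 3 GC boxes and 1 CCAAT box, and the whole Col4a1 window 1 of each. That CCAAT box of Col4a2, at -32 from its RefSeq start, is cut by the edge of the stretch. By that RefSeq start, 11312805, Col4a2 overlaps Col4a1, whereas the coordinates of the deposited table start Col4a2 at 11312829. Of 46 promoter windows of that size found for 42 members, 32 (69.6%) held the GC box, 18 (39.1%) the CCAAT box and 7 (15.2%) TATAAA on either strand, against 35.6%, 37.4% and 13.6% of all 32817 windows, whose median GC content was 52.7%, beside 60.2% in the members' windows.

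The partners of each pair had differences of the same sign, below 0 in the first and second pairs and above 0 in the third; differences between pairs were not tested. In the first pair, Col4a1 and Col4a2 had opposite signs without Control 981/982 (0.03 and -0.08) and after quantile normalization (0.03 and -0.07). Col4a4, which with Col4a3 and Col4a5 builds the collagen of mature specialised basement membranes, stood at -0.72, -1.95, -0.92, -0.07 and -0.27 in the ONC libraries, against -0.59, 0.13, 0.00 and 0.61 in the Control libraries. Its partner Col4a3 stood at -0.48, -1.95, -0.31, -0.26 and 0.10 in the ONC libraries, against -0.83, 0.00, 0.20 and 0.63 in the Control libraries. Both were lowest in ONC 914/92, highest in Control 981/982 and lower in ONC in all 4 pools. The difference was -0.82 ± 0.38 (SE) for Col4a4 (adjusted p = 0.275) and -0.58 ± 0.43 (SE) for Col4a3 (adjusted p = 0.458). Col4a6, found with Col4a5 in the basement membranes of smooth muscle and some epithelia, stood at 1.00, -0.23, 0.64, 0.18 and 0.84 in the ONC libraries, against 0.41, 0.17, -0.03 and 0.00 in the Control libraries. Col4a5 stood at 0.55, -0.36, 0.63, 0.69 and 0.63 in the ONC libraries, against 0.32, -0.16, 0.00 and 0.34 in the Control libraries. In both, 3 of 4 pools were higher in ONC and ONC 914/92 was the lowest library. Their differences were 0.35 ± 0.25 (SE) for Col4a6 (adjusted p = 0.438) and 0.30 ± 0.23 (SE) for Col4a5 (adjusted p = 0.47), and without ONC 914/92 that of Col4a5 was 0.50. Col4a1, whose chain with that of Col4a2 forms the collagen of nearly every basement membrane, stood at -0.18, -0.68, -0.25, -0.15 and 0.34 in the ONC libraries, against -0.24, -0.41, 0.00 and 0.61 in the Control libraries. Apart from ONC 914/92, the ONC libraries lay within the Control range, and the difference was -0.17 ± 0.24 (SE, adjusted p = 0.697). Col4a2 differed by -0.21 ± 0.17 (SE, adjusted p = 0.503). Col4a2, Col4a3 and Col4a5 were named for being partners.

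**Figure D4:**
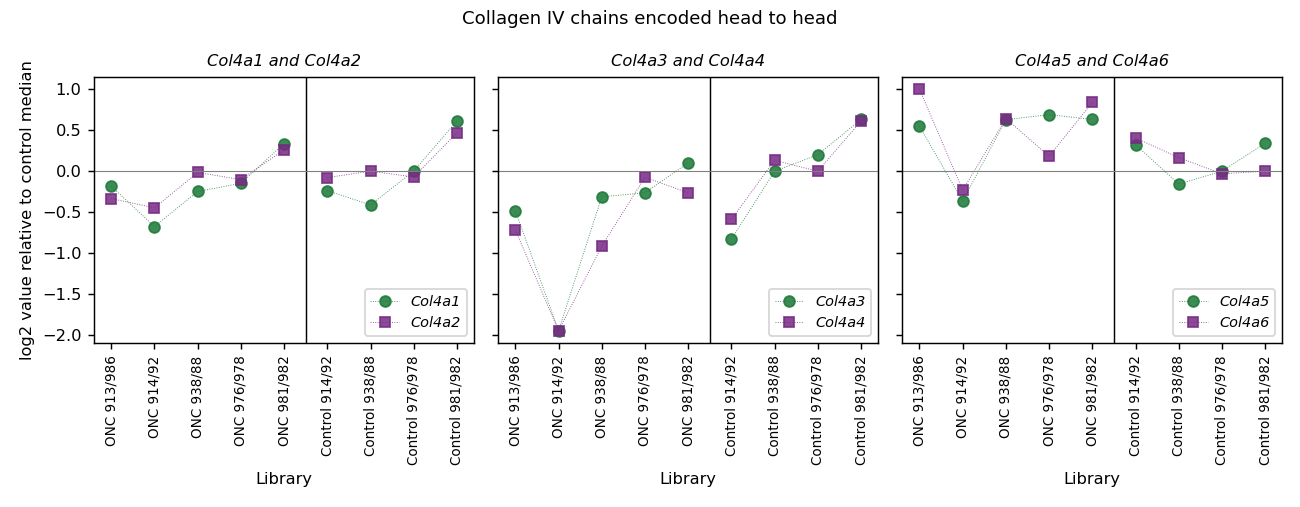
Log2 value relative to a Control median (vertical axis) of the 3 collagen IV gene pairs in each ONC library (left of the line) and Control library (right), with 1 colour per gene and dotted lines only to guide the eye. The partners lie close together in most libraries, down to -1.95 for Col4a3 and Col4a4 in ONC 914/92. In ONC 938/88 these 2 genes stand apart, at -0.31 and -0.92. Whether partners follow each other more than other genes was not tested.

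The 2 other basement membrane collagens carry heparan or chondroitin sulfate chains. Col15a1, which binds vessels and muscle to their surroundings, stood at -0.23, -0.89, -0.30, 0.09 and 0.11 in the ONC libraries, against -0.37, 0.08, 0.78 and 0.00 in the Control libraries. The groups overlapped widely, with a difference of -0.37 ± 0.27 (SE, adjusted p = 0.451), which was -0.20 without ONC 914/92 and -0.15 without Control 976/978. Col18a1, the source of endostatin and a component of the inner limiting membrane, differed by 0.15.

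Of 9 fibrillar collagens, 6 had differences above 0, and the spread within groups was wide (median SD 0.790). Col27a1, a collagen known from cartilage, stood at -1.47, -1.54, -1.47, 0.29 and -0.48 in the ONC libraries, against -0.81, -0.93, 0.00 and 0.70 in the Control libraries. The values of ONC 913/986, 914/92 and 938/88 were the lowest, and the difference was -0.67 ± 0.47 (SE, adjusted p = 0.436). Col5a3, a minor chain that helps start fibrils, stood at -0.53, 0.03, 0.51, 1.13 and 0.18 in the ONC libraries, against 0.00, -1.76, -0.68 and 0.86 in the Control libraries, the lowest of all being Control 938/88. Its difference was 0.66 ± 0.51 (SE, adjusted p = 0.479), 0.20 without Control 938/88 and 1.07 without Control 981/982. Col1a1, the main chain of type I collagen, stood at 1.46, 0.07, 0.08, 1.35 and 0.98 in the ONC libraries, against 0.71, 0.00, -0.05 and 0.92 in the Control libraries. ONC 914/92 and 938/88 lay within the Control range, and the difference was 0.40 ± 0.36 (SE, adjusted p = 0.54). Its partner chain Col1a2, named after its values were seen, stood at 1.28, -3.44, 1.25, 0.39 and 1.39 in the ONC libraries, against 0.25, 0.00, -0.63 and 0.07 in the Control libraries. Its ONC mean hung on ONC 914/92: the difference was 0.25 ± 0.93 (SE) with that library (adjusted p = 0.89) and 1.16 without it (adjusted p = 0.0971). The differences of the other fibrillar chains were -0.09 for Col2a1, the collagen of vitreous and cartilage, 0.37 for Col11a1 and -0.21 for Col11a2, which build fibrils with it, 0.19 for Col5a1 and 0.52 for Col24a1.

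The collagens that decorate fibrils include type IX, which coats the fibrils of the vitreous. Col9a2 stood at 0.41, 0.25, 0.18, 0.16 and 0.39 in the ONC libraries, against 0.25, -0.03, 0.00 and -0.33 in the Control libraries. All ONC libraries were above 0 and Control 914/92 was level with them. The difference of Col9a2 was 0.30 ± 0.12 (SE, 95% interval 0.03 to 0.58, adjusted p = 0.224). Its partner Col9a3 stood at 0.21, 0.10, -0.04, 0.74 and 0.22 in the ONC libraries, against 0.15, 0.00, -0.23 and 0.17 in the Control libraries, a difference of 0.22 ± 0.16 (SE, adjusted p = 0.454), and the third chain, Col9a1, differed by 0.11. Col19a1, a collagen known from muscle and from neurons that form synapses, stood at -0.54, -1.47, -0.72, -0.73 and -0.53 in the ONC libraries, against -1.04, -0.19, 0.00 and 0.48 in the Control libraries. It was lower in ONC in all 4 pools, with a difference of -0.61 ± 0.31 (SE, adjusted p = 0.3), and the ONC range overlapped only with Control 914/92. The other 4 of these 8 collagens differed by -0.53 (Col12a1), -0.59 (Col20a1), 0.02 (Col16a1) and 0.27 (Col22a1).

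Among collagens that form beaded filaments, anchoring fibrils or hexagonal nets, Col6a2, a chain of the beaded type VI filaments, stood at 0.62, 0.71, -0.17, 0.73 and 0.60 in the ONC libraries, against 0.52, -0.30, 0.05 and 0.00 in the Control libraries. It was higher in ONC in all 4 pools, with ONC 938/88 well below the other 4 ONC libraries, and differed by 0.43 ± 0.22 (SE, adjusted p = 0.313). Col6a4, another type VI chain, stood at -0.84, -3.19, -0.55, 1.24 and 0.56 in the ONC libraries, against 0.00, -0.62, -0.80 and 1.74 in the Control libraries. Its difference of -0.64 ± 0.88 (SE, adjusted p = 0.693) rested on ONC 914/92, without which it was 0.02. Col8a1, a short-chain collagen of Descemet's membrane and vessels, stood at -0.55, -0.02, -0.70, 1.09 and -0.22 in the ONC libraries, against -0.39, 0.43, 0.00 and 0.67 in the Control libraries, and its partner Col8a2 differed by -0.11. Col8a1 differed by -0.26 ± 0.37 (SE, adjusted p = 0.7), with ONC 976/978 above every other library. Col6a1 and Col7a1, the collagen of anchoring fibrils, differed by -0.22 and -0.29 with the widest spreads described below.

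The 4 transmembrane collagens measured sit in the cell surface. Col25a1, a neuronal collagen needed for motor innervation, stood at -0.54, -0.88, 0.14, -0.27 and 0.00 in the ONC libraries, against 0.00, -0.27, 0.33 and 0.55 in the Control libraries. It was lower in ONC in 3 of 4 pools and differed by -0.46 ± 0.24 (SE, adjusted p = 0.309). Col13a1, a collagen of the neuromuscular junction, stood at -0.20, 1.03, -0.22, 0.80 and -0.71 in the ONC libraries, against -0.20, 0.00, -2.04 and 0.28 in the Control libraries, with Control 976/978 far below the rest and a difference of 0.63 ± 0.53 (SE, adjusted p = 0.505). Col17a1, which anchors epithelial cells at hemidesmosomes, stood at -0.97, 0.87, 0.39, -0.15 and -0.20 in the ONC libraries, against -1.38, 0.00, 0.71 and 1.16 in the Control libraries. The groups of Col17a1 covered much the same range (difference -0.13 ± 0.53 (SE), adjusted p = 0.898), and Col23a1 differed by 0.03.

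Fibronectin and the matricellular proteins, which act on cells without building the scaffold, gave 0 calls: 2 had differences above 0 and 3 below. Sparc, a collagen-binding protein that loosens cell adhesion and is made by glia, stood at 0.84, 0.81, 0.49, 0.58 and -0.03 in the ONC libraries, against 0.29, 0.00, -0.23 and -0.73 in the Control libraries. It was higher in ONC than in Control in all 4 pools, and the ONC library of pool 981/982 and its Control fellow were each the lowest of their group. The means were 0.54 ± 0.35 in ONC (SD, n = 5) and -0.17 ± 0.43 in Control (SD, n = 4), a difference of 0.70 ± 0.24 (SE, 95% interval 0.17 to 1.24, adjusted p = 0.167). Fn1, fibronectin, stood at 0.02, -0.84, -0.09, -0.39 and 0.08 in the ONC libraries, against -0.26, -0.26, 0.00 and 0.50 in the Control libraries. Apart from ONC 914/92 and Control 981/982 the values lay within a narrow band, and the difference was -0.24 ± 0.23 (SE, adjusted p = 0.559). Tnc, tenascin C, stood at -0.63, -1.12, 0.14, -1.11 and -0.13 in the ONC libraries, against -0.57, 0.20, 0.00 and -0.20 in the Control libraries. Below the Control range lay 3 ONC libraries and within it 2, with a difference of -0.43 ± 0.29 (SE, adjusted p = 0.424). Thbs1, a thrombospondin that astrocytes release and that can activate transforming growth factor beta, stood at -1.04, -0.94, -0.36, 0.50 and -0.04 in the ONC libraries, against -0.59, 0.00, 0.33 and 0.52 in the Control libraries. It differed by -0.44 ± 0.35 (SE, adjusted p = 0.483), and Thbs2 by 0.27, with values in ONC that ran over more than 2 log2 units.

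Among the proteoglycans, Bcan and Ncan are the lecticans of the central nervous system. Bcan, brevican, stood at -0.50, 0.53, -1.18, -0.34 and -0.07 in the ONC libraries, against 0.27, 0.20, 0.00 and -0.14 in the Control libraries, with 1 ONC library above the Control range, 1 inside it and 3 below it. The difference of Bcan was -0.39 ± 0.29 (SE, adjusted p = 0.466). Ncan, neurocan, differed by -0.05 with a 95% interval of -0.33 to 0.22, one of the narrowest among the members. Vcan, versican, which is made by glia and by connective tissue cells, stood at -0.03, -4.81, -0.33, -0.99 and 0.48 in the ONC libraries, against 0.03, 0.00, -0.67 and 0.01 in the Control libraries. Its difference of -0.98 ± 0.96 (SE, adjusted p = 0.567) came from ONC 914/92, without which it was -0.06. Dcn, decorin, a small leucine-rich proteoglycan that binds collagen fibrils, stood at 0.79, -1.26, -0.41, 0.51 and 0.56 in the ONC libraries, against -1.33, -0.98, 0.00 and 0.16 in the Control libraries. It was higher in ONC in all 4 pools, within a wide and shared range, and differed by 0.58 ± 0.48 (SE, adjusted p = 0.504). Bgn, the related biglycan, differed by 0.01.

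ONC 914/92 and Control 981/982 were most often at the extremes. ONC 914/92 was the lowest of the 9 libraries for 28 members (48.3%), against 25.5% of all entries, and Control 981/982 was the highest for 20 (34.5%), against 18.7%. The median over the 58 members was -0.21, -0.49, -0.04, 0.13 and 0.15 in the ONC libraries, against 0.00, 0.00, 0.00 and 0.25 in the Control libraries. A range over 3 log2 units between libraries, a limit set after the values were seen, was found in 11 members (19.0%), against 4.43% of all entries. They were Vcan, Col7a1, Col6a4, Col1a2, Col6a1, Lama4, Col12a1, Col20a1, Col11a2, Lamc3 and Col13a1, 8 of them collagens. Among them, Col6a4, Lama4, Lamc3 and Col13a1 passed the submitters' raw-value filter in 1 condition alone.

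Of these 11 genes, 5 were highest in the same pair of libraries and 5 were lowest in the same library, with 1 gene in both sets and Lama4 and Col13a1 in neither. In 5 (Col7a1, Col6a1, Col6a4, Col11a2 and Col20a1) the 2 highest libraries were ONC 976/978 and Control 981/982, 1 of each group. Col7a1 and Col6a1 are given in full after their values were seen. Col7a1 stood at -1.11, 0.62, -1.46, 2.82 and 1.61 in the ONC libraries, against 0.00, -0.41, -0.04 and 3.59 in the Control libraries. Col6a1 stood at -0.57, -0.39, -1.05, 2.12 and 1.38 in the ONC libraries, against -1.32, -0.01, 0.00 and 3.40 in the Control libraries. The same 2 libraries had the highest medians of the 12 markers of retinal pigment epithelium and choroid, 0.36 in ONC 976/978 and 0.48 in Control 981/982, against -0.75 to -0.09 in the other ONC libraries and -0.52 to 0.05 in the other Control libraries. These markers ran from -1.39 for Pmel to 0.98 for Rgr in ONC 976/978. In Control 981/982 they ran from -1.11 for Best1 to 1.11 for Tyr. The cone gene Arr3, named after its values were seen, stood at 2.92 in ONC 976/978 and 3.51 in Control 981/982. The medians of the rod and cone markers there were -0.25 and 0.20. The lowest library was ONC 914/92 in 5 genes (Vcan, Col1a2, Col12a1, Lamc3 and again Col6a4), with Vcan, Col1a2 and Col6a4 below -3. There the 7 measured fibroblast and meningeal markers that are no members had a median of -0.97, against -0.11 to 0.77 in the other ONC libraries and -0.68 to 0.05 in the Control libraries, and ran in ONC 914/92 from -4.40 for Ogn to 0.29 for Slc47a1. The part of these cell types in the values was not tested.

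**Figure D5:**
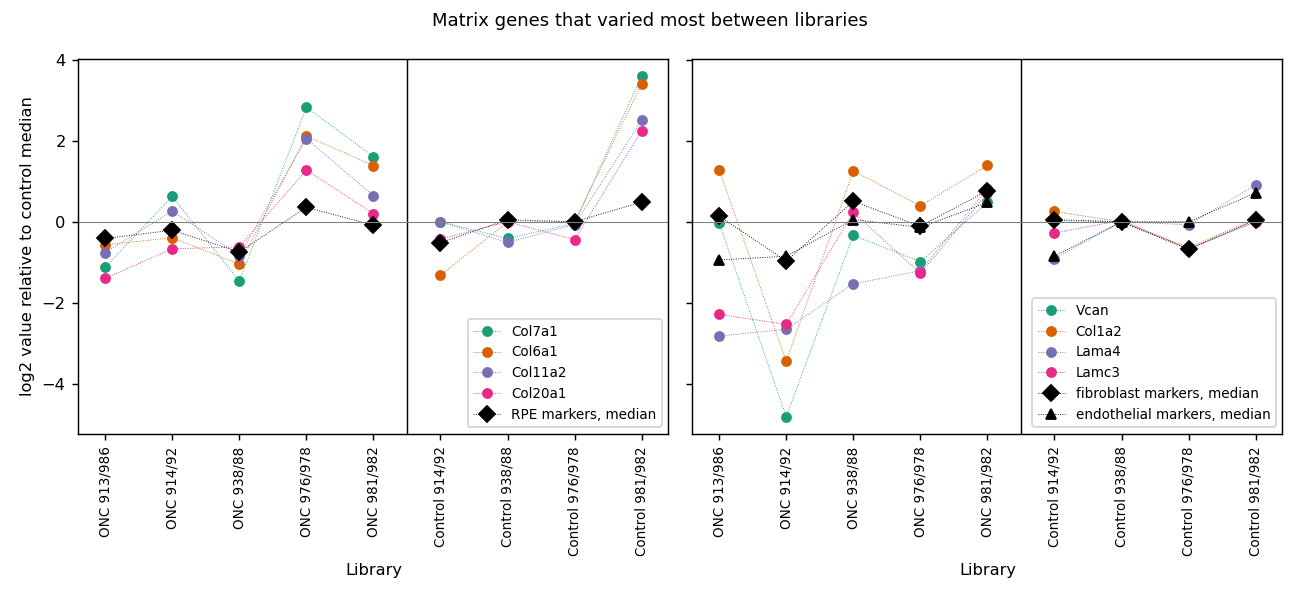
Log2 value relative to a Control median (vertical axis) of 8 of the 11 matrix genes with the widest range, in each ONC library (left of the line) and Control library (right), beside the median of marker lists (black; RPE, retinal pigment epithelium and choroid). Col7a1, Col6a1, Col11a2 and Col20a1 peak in ONC 976/978 and Control 981/982, and Vcan and Col1a2 drop to -4.81 and -3.44 in ONC 914/92.

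The genes that make, bind and cut the matrix are read here against the 1.16% of all entries that passed. Of 27 measured of 30 genes of collagen folding, modification and crosslinking, 0 passed, with a median difference of 0.17. Bmp1, the protease that trims procollagens, is given in full after its values were seen. It stood at 1.83, 1.25, 1.40, 1.87 and 0.66 in the ONC libraries, against 0.68, 0.10, 0.00 and -0.11 in the Control libraries, and missed the threshold with a difference of 1.23 ± 0.27 (SE, adjusted p = 0.0672). Fkbp10, a chaperone of collagen, differed by 0.55 ± 0.18 (SE, adjusted p = 0.167). Of 27 matrix receptors, 1 rose and none fell. That was Itga5, the integrin alpha 5 subunit that binds fibronectin, which stood at 0.95, 1.01, 1.03, 0.94 and 0.49 in the ONC libraries, against 0.24, -0.30, 0.00 and -0.08 in the Control libraries. Its groups did not overlap, and the difference was 0.92 ± 0.15 (SE, adjusted p = 0.024). Of 18 alternative fits, 8 kept the call of Itga5, and its adjusted p ranged from 0.00908 to 0.14. Its call was lost in the fit that blocks on pool (adjusted p = 0.0646), when a variance trend was added to that block (0.0806), after quantile normalization (0.0969), without ONC 913/986 and 914/92 together (0.14) and on leaving out ONC 913/986 (0.0779), ONC 938/88 (0.0532), ONC 976/978 (0.0678), Control 938/88 (0.078), Control 976/978 (0.091) or Control 981/982 (0.0751).

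Of 26 measured of 27 matrix proteases and inhibitors, 2 rose and none fell. Mmp12, the metalloelastase of macrophages, stood at 6.85, 6.95, 6.61, 6.39 and 6.25 in the ONC libraries, against 0.00, 1.40, 0.38 and -1.87 in the Control libraries. The difference was 6.63 ± 0.55 (SE, adjusted p = 0.000844), with adjusted p of 0.000273 to 0.811 over 17 alternatives, 14 of which kept the call; it was lost with a variance trend (0.587), with a trend and the block (0.811) and after quantile normalization (0.0712). Plaur, the urokinase receptor, stood at 3.37, 4.07, 2.04, 2.79 and 3.84 in the ONC libraries, against -0.06, -0.93, 0.00 and 1.20 in the Control libraries. The difference was 3.17 ± 0.50 (SE, adjusted p = 0.023). Of 17 alternatives 9 kept the call of Plaur, with adjusted p of 0.0197 to 0.129, and it was lost with a variance trend (0.0575), with a trend and the block (0.0801), after quantile normalization (0.0855), without both libraries of pool 914/92 (0.0691), without ONC 913/986 and 914/92 together (0.129) and on leaving out ONC 913/986 (0.0719), Control 938/88 (0.0702) or Control 976/978 (0.091). Mmp12, Plaur and the macrophage marker Cd68 each passed the submitters' raw-value filter in 1 condition alone, so they entered the table through that condition. The markers of microglia and macrophages had higher medians in the ONC libraries, and Cd68 was the 1 of 17 past the threshold (3.11 ± 0.41 (SE), adjusted p = 0.0104, 0.053 with the block, 0.0844 with the block and a trend, 0.153 after quantile normalization and 0.0843 without ONC 913/986 and 914/92). Of the 11 markers that passed the filter in both conditions, 0 passed the test. Of 24 genes of the transforming growth factor beta pathway, a main inducer of matrix genes in many tissues, 0 passed. Ltbp1 and Ltbp3, which store the latent factor in the matrix, had the smallest p, with differences of 0.62 ± 0.21 (SE, adjusted p = 0.164) and 0.34 ± 0.14 (SE, adjusted p = 0.219).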

How the data were processed

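The deposited values are on a log2 scale, read from the values themselves: they were normalized by the authors, per the file headers, which name no scale. Genes follow RefSeq models, and the file headers state a filter that kept an entry when, in at least 1 of 2 conditions, 100% of libraries had a raw value from 5 to 298892.188. Of the 58 matrix genes, 54 passed that filter in both conditions and 4 (Lamc3, Col6a4, Lama4 and Col13a1) in 1. The build mm10 and DESeq, without a version, come from the submitters' processing notes, and the sources used here name no aligner or counting tool. That each gene is relative to a median of controls was read from the values: 13230 of 14194 entries have exactly 1 Control library at 0, with at least 1 other on each side, and 959 have none at 0, with 2 on each side. Whether counting used strand is not stated.

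limma 3.58.1 (R 4.3.3) was fitted to every entry over the 9 libraries, ONC against Control, without a block and without a variance trend, since the mean that a trend would follow is tied to the tested difference by the centring on controls. Two-sided p-values were adjusted by the Benjamini-Hochberg method over 14194 entries, with a threshold of 0.05. The fit was tested on simulated data. The treatment label gave the group and the animal number gave the pool. Per the labels, the ONC and Control libraries of a pool come from the same animals, which gives 4 pairs, although Y-linked RNA goes against that for pool 914/92. The correlation of their deviations from the group means over all entries was 0.38, 0.18, -0.06 and 0.45 for pools 914/92, 938/88, 976/978 and 981/982. Over the 58 members it was 0.05, 0.42, -0.40 and 0.35 in the same order. Correlations between libraries of different pools are not given here, so these values do not test the pairing. The replicates are pools of 2 animals.

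Members, roles, gene lists and the genes named were chosen with earlier results of these data known. Values in every library are given for Lamb1, Col4a1, Fn1 and Tnc, for the 3 members with the smallest p in each role group, and, in neighbouring lists, for those past the threshold. A gene outside this rule is named as such or given by its difference alone. Promoter sequences were matched by gene ID to a RefSeq table on GRCm38.p6, and other coordinates are those of the deposited table. Alternatives were a block by animal pool, a variance trend, both together, entries that passed in both conditions, quantile normalization, median centring, a robust fit, and leaving out libraries. Values of 1 member are not reported here and it is left out of the figures, though it stays in the fits and counts. Figures were drawn with matplotlib 3.10.9.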

Additional observations from a re-analysis of the deposited data

Results flagged for a closer look

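In 13 of 116 groups of values (58 genes in 2 groups), 1 library lay far from the others of its group. Chance alone would flag about 1 in 20 groups, or 5%, if the groups were independent. They are not, since the genes share libraries, and the share flagged over all entries is not given here. Over all entries, ONC 914/92 was the lowest library for 25.5% and the highest for 25.6%. Of the 13 flags, 7 concerned ONC 914/92, which was low in each: Vcan at -4.81 (other ONC libraries -0.99 to 0.48), Col1a2 at -3.44 (0.39 to 1.39), Col4a3 at -1.95 (-0.48 to 0.10), Bgn at -1.57 (0.01 to 0.52), Col19a1 at -1.47 (-0.73 to -0.53), Nid2 at -0.97 (0.47 to 1.05) and Col4a5 at -0.36 (0.55 to 0.69).

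A further 4 concerned Control 981/982, which was high in each: Col7a1 at 3.59 (other Control libraries -0.41 to 0.00), Col11a2 at 2.51 (-0.51 to 0.00), Col20a1 at 2.24 (-0.44 to 0.00) and Col4a2 at 0.47 (-0.08 to 0.00). The other 2 were Col6a2 in ONC 938/88 at -0.17 (other ONC libraries 0.60 to 0.73) and Vcan in Control 976/978 at -0.67 (other Control libraries 0.00 to 0.03).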

How the results depend on the processing

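All 18 alternatives called 0 of the matrix genes, with the animal pool as a replicate block included. Over all genes, limma called 165 entries, 129 with the block, 50 with a variance trend, 0 with both, 102 of the entries that passed the filter in both conditions, 30 after quantile normalization and 72 without ONC 913/986 and 914/92 (both low in Y-linked RNA); leaving out 1 library gave 62 to 234. Of 520 values of the 29 members named by rule, 510 kept their direction, and 25 members kept it throughout. The exceptions, none past the threshold, were Col4a1 (0.0262 after quantile normalization, and -0.3085 to 0.0329 on leaving out 1 library), Vcan (0.0028 without both libraries of pool 914/92), Col6a4 (0.34 without ONC 913/986 and 914/92, and -1.0852 to 0.0231 on leaving out 1 library) and Col17a1 (0.10 with the block, with or without a trend, and -0.64 to 0.21 on leaving out 1 library). These 29 were mostly picked for a small p: over all 58, 37 kept their direction throughout and 21 did not, among them Col1a2 (-0.05 to 1.27), Col6a1 (-0.83 to 0.74), Col7a1 (-0.87 to 0.65) and Lamc3 (-1.24 to 0.12). Leaving out 1 library moved the difference of 20 of the 29 by over 1.5 times at least once. The median difference of the members ranged from -0.20 to 0.03. The causes were not tested. Unknown depth limits these values, as do the spread between libraries and the doubtful pairing of pool 914/92.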
